A study of Mus musculus with 28 samples.

Results

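TET TKO and WT mouse embryonic stem cells (mESCs) were compared after knockdown of Kap1, so that the values below are the levels reached once KAP1 was depleted in cells with and without TET genes. The members were chosen by label: the 2 TET TKO and the 3 WT libraries that carry the shKap1 hairpin, 5 of the 16 RNA-seq libraries among the 28 samples of the series. The 5 libraries with the same genotypes and the empty hairpin, 2 TET TKO and 3 WT, are given beside them. All were J1 mESCs of strain 129S4/SvJae, kept on gelatin in the naive state in N2B27 medium with 2i and LIF. WT cells carried no engineered deletion, whereas TET TKO cells were labelled as a knockout of Tet1, Tet2 and Tet3. Each genotype was 1 line, so the effect of the deletions and any other difference between the lines cannot be told apart. Cells were transduced with a pLKO.puro lentiviral vector expressing shKap1 or no hairpin (shEmpty), selected with 4 µg/mL puromycin and collected on day 5. Per the study, Kap1 knockdown arrests proliferation and kills cells, and replicates came from independent experiments. In such bulk RNA, fewer cells of a type and less RNA per cell cannot be told apart.

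KAP1, encoded by Trim28, is a corepressor that KRAB zinc finger proteins bring to their DNA targets, where it assembles H3K9 methyltransferases and other silencing activities. In mESCs it keeps many transposable elements (TEs) silent, above all endogenous retroviruses such as IAPs, and it protects the methylated allele of imprinting control regions. TET1, TET2 and TET3 are dioxygenases that oxidise 5-methylcytosine (5mC) to 5-hydroxymethylcytosine (5hmC), a step towards removal of DNA methylation. DNA methylation itself is known to silence IAPs and a set of germline genes, and MERVL, a retrovirus with MT2_Mm long terminal repeats (LTRs), marks the 2-cell embryo and the rare 2-cell-like cells of mESC cultures.

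The hairpin decides which gene was depleted, and its sequence is therefore shown with the 21-base arm that reads as the target in capitals.

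shKAP1: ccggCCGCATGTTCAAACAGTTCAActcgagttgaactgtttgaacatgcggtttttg

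Among the protein-coding transcripts of the annotation the arm matched 1 gene, Trim28, within a coding exon on the plus strand at chr7:13615908-13615928 (mm9). Trim28 was at 163 and 168 CPM in the TET TKO libraries with shKap1 and at 190.0, 156 and 149 in the WT libraries with shKap1. With shEmpty it was at 1771 and 1898 in TET TKO and at 1991, 1639 and 1626 in WT cells. All levels are CPM, the TMM-scaled counts relative to the reads on genes, the values are listed in the order of the replicate numbers, and they compare 1 gene between libraries, not genes with each other. The shKap1 groups overlapped and the log2 difference between them was 0.0059 ± 0.165 (SE, edgeR quasi-likelihood test, adjusted p = 0.989), so that the residual Trim28 level did not separate the lines. That test returns no SE, so the SE here and below is the absolute log2 difference divided by the square root of its F statistic.

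Of the deleted genes, Tet1 stood at 245 and 239 in TET TKO and 659, 603 and 599 in WT cells after knockdown. Tet2 stood at 76.4 and 71.8 against 417, 483 and 471. Tet3 stood at 21.0 and 17.8 against 53.3, 46.6 and 47.2. All 3 were lower in TET TKO cells, with log2 differences of -1.36, -2.62 and -1.33 (adjusted p = 2.83e-06, 1.60e-11 and 7.17e-06, edgeR). These counts cover whole genes, so reads from outside the deleted part still enter them and they do not check the deletions themselves. With shEmpty Tet3 was at 13.3 and 14.2 in TET TKO and 10.7, 15.2 and 15.9 in WT cells, where the lines overlapped, and the gap between the lines moved by -1.30 on the log2 scale (edgeR interaction, adjusted p = 0.00121).

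Reads on genes numbered 21387129 and 19337417 in the TET TKO libraries and 18693077, 22201148 and 18108431 in the WT libraries, which fixes the counting precision of what follows. The 2 TET TKO libraries correlated with each other at 0.9985 over genes and the lines with each other at 0.9803 to 0.9816, as a description. The chi-square per degree of freedom between gene counts was 1.63 for the 2 TET TKO libraries and 1.80 for WT replicates 2 and 3. For WT replicate 1 against these it was 10.9 and 10.3. The TET TKO libraries thus differed by little more than counting noise. Whether their spread, on which the p-values partly rest, stands for that between separate cultures was not tested. WT replicate 1 stood apart from the other WT libraries: in 116 genes it was the one farthest from the rest with a range above 1 on the log2 scale, against 3 for WT replicate 2 and 0 for WT replicate 3. Stra8 was at 14.9 there and at 50.8 and 50.0 in the other WT libraries, and Peg10 at 2541 against 1134 and 1051. The counts over all genes, families and integrants and those of several lists are therefore also given without it. ES cell identity markers were present in every library, with a summed level of 10 markers of 3595 and 3645 in TET TKO and 2890, 2963 and 2970 in WT cells, and none of them was called (median log2 difference 0.25). Pou5f1, which encodes OCT4, was at 828 and 841 against 768, 772 and 779. Of 15 fibroblast feeder markers 12 could be tested and 2 had no read in any of the 5 libraries. Their summed level was 56.2 and 56.6 in TET TKO and 37.6, 45.2 and 46.2 in WT cells, of which Col5a1 made up 31.8 and 32.4 against 18.3, 18.9 and 19.14. Mmp2 was called higher (6.39 and 7.18 against 2.10, 2.34 and 2.56) and Col1a2 and Pdgfrb lower, the last not without either TET TKO library, without WT replicate 2 or 3 or without the read filter. Their part in the results was not tested.

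To ask how far the expression profiles of the lines had diverged once KAP1 was removed, 20321 genes with at least 16 reads over the 16 libraries were tested. A gene was called at an adjusted p below 0.05 and a difference of at least 2-fold. After Kap1 knockdown 1240 genes (6.1%) were higher and 1009 (4.97%) lower in TET TKO cells. With shEmpty the same test called 1151 genes higher (5.66%) and 976 lower (4.8%). Of the 1240 genes higher after knockdown, 492 were also higher with shEmpty, which is 39.7% of the former and 42.7% of the latter list. Of the 1009 lower genes, 407 were also lower with shEmpty, 40.3% and 41.7% of the lists. The interaction, which is the log2 gap between the lines after knockdown minus that with shEmpty, was positive in 423 genes (2.08%) and negative in 432 (2.13%). Without WT replicate 1 the counts were 1123 higher and 1012 lower after knockdown, and 385 and 416 for the interaction. Here and below only the shKap1 library of that number was left out. WT shEmpty replicate 1 stayed in the interaction, and Stra8 was at 1.44 there against 15.4 and 19.5 in the other WT shEmpty libraries. The median log2 difference over all genes tested was 0.014 after knockdown and 0 with shEmpty.

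**Figure D1:**
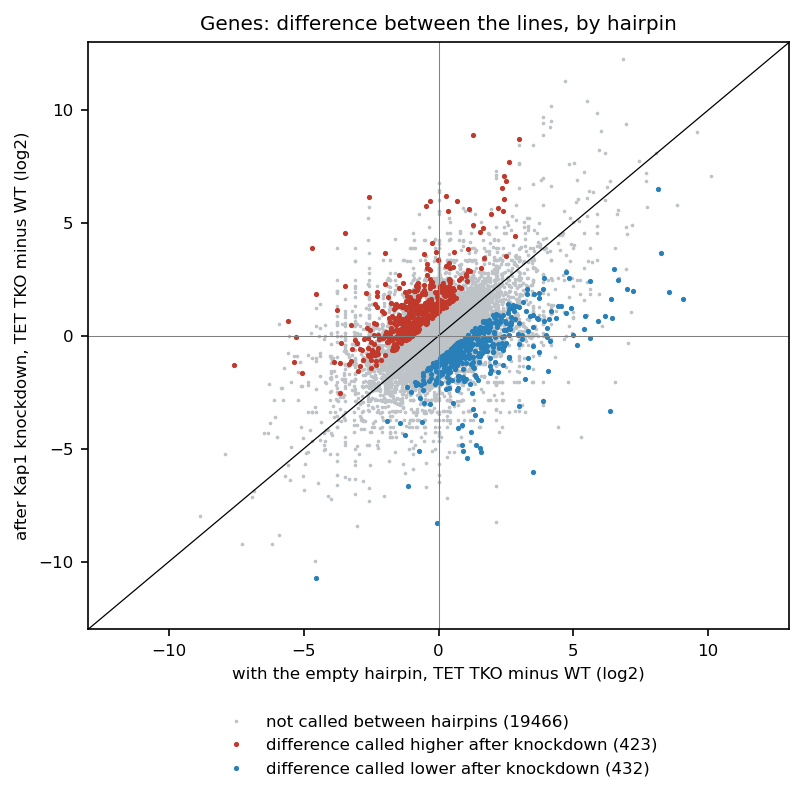
Each point is 1 of the 20321 genes tested, with the log2 difference between TET TKO and WT cells with shEmpty on the x axis and after Kap1 knockdown on the y axis. Red points (423) and blue points (432) are genes with a positive or negative interaction and lie to either side of the drawn diagonal, and all other genes are grey.

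The 12 genes with the largest excess in TET TKO cells, among those with at least 500 reads over the 5 libraries and groups that do not overlap, included several that the WT libraries hardly expressed. Slc10a6, a transporter of steroid sulfates (chr5:104034730-104058422 on mm9), was at 26.1 and 26.3 CPM in TET TKO cells and had no read in the 3 WT libraries, which makes it at least 532-fold higher against a floor of 3 reads over the WT group. With shEmpty it was at 0.529 and 0.676 in TET TKO cells, again with no WT read. H2-M10.4, a non-classical MHC class I gene, was at 14.5 and 12.3 and had no WT read, at least 273-fold higher. That the lines did not overlap in these genes after knockdown was required by the rule and is no result of its own.

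Some of the 12 also differed with KAP1 present. Ubd, which encodes the ubiquitin-like modifier FAT10, was at 20.1 and 20.4 against 0.105, 0 and 0, with log2 differences of 9.05 after knockdown and 9.58 with shEmpty. Gm10499 was at 30.4 and 29.2 against 0.315, 0.390 and 0.267 (log2 6.49 and 8.13 by hairpin). Rpl29, which encodes a ribosomal protein, was at 62.8 and 63.9 against 1.15, 1.08 and 0.586 (6.05 and 5.18). Ubd, Gm10499 and Rpl29 were called under either hairpin. Ribosomal protein genes have near-identical copies elsewhere in the genome, and since the study kept uniquely mapping reads the Rpl29 values are uncertain.

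Arntl2, a bHLH-PAS partner of CLOCK in the circadian transcription factor (chr6:146744577-146782051 on mm9), was called only with shKap1. It was at 133 and 132 in TET TKO and 2.15, 1.99 and 2.24 in WT cells after knockdown. With shEmpty it was at 1.83 and 1.61 against 1.17, 0.854 and 1.24, so that no library outside the TET TKO shKap1 group came near their level. The log2 difference after knockdown was 5.96 ± 0.141 (adjusted p = 4.84e-15, edgeR) and that with shEmpty 0.68, which was not called, and the gap grew by 5.28 (adjusted p = 1.05e-09). Cldn9, a tight junction claudin, was at 17.6 and 13.8 against 0.367, 0.130 and 0.267 after knockdown and at 0.564 and 0.413 against 0.500, 0.640 and 0.672 with shEmpty. Its gap grew by 6.28. Rassf4, a Ras association domain protein that the rule named for the interaction, was at 71.0 and 69.0 against 1.26, 0.953 and 1.71 after knockdown and at 3.52 and 2.97 against 3.83, 4.55 and 4.92 with shEmpty. For both genes the TET TKO libraries with shKap1 were the high ones, and the other 3 groups stayed far below them.

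Aqp9, an aquaporin for water and glycerol (chr9:70958466-71016489 on mm9), was at 30.8 and 28.3 in TET TKO and 0.0524, 0.0433 and 0.107 in WT cells. It was at 7.89 and 7.81 against 0.666, 0.925 and 1.27 with shEmpty, so that the lines already differed there and the TET TKO level was higher and the WT level lower with shKap1. The log2 difference was 8.70 ± 0.301 (adjusted p = 5.72e-13) and the gap grew by 5.71. Pramel6, of the PRAME family, was at 33.3 and 37.1 against 0.262, 0.390 and 0.213 after knockdown and at 101 and 95.6 against 7.39, 22.3 and 20.9 with shEmpty. Both groups were thus lower with shKap1, the WT libraries more so (gap grew by 4.36). Prr18 (48.6 and 50.0 against 0.157, 0.260 and 0.267), the transmembrane protein gene Tmem132c (75.8 and 69.9 against 0.629, 1.30 and 0.320) and Cacna1s, the pore subunit of the skeletal muscle calcium channel (42.1 and 38.1 against 0.472, 0.260 and 0.267), completed the 12. Their log2 differences were 7.71, 6.54 and 6.91.

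Among the 12 genes with the largest deficit, Ctsh, which encodes the lysosomal protease cathepsin H (chr9:89948990-89970927 on mm9), was at 0.324 and 0.154 in TET TKO and at 57.8, 84.2 and 89.0 in WT cells after knockdown. With shEmpty it was at 0.176 and 0.338 against 0.167, 0.285 and 0.318. Of these 10 libraries only the WT libraries with shKap1 held it at more than 1 CPM. The log2 difference was -8.28 ± 0.309 (adjusted p = 1.50e-12) against -0.072 with shEmpty, and the interaction was -8.20 (adjusted p = 6.22e-06). Ttc18, a tetratricopeptide repeat gene, was alike, at 0.556 and 0.154 against 23.6, 42.4 and 43.9 after knockdown and 0.493 and 0.338 against 0.833, 0.854 and 1.06 with shEmpty. Naip6, of the NAIP inflammasome receptors, was at 0.463 and 0.513 against 14.2, 18.9 and 18.2 after knockdown and 0.0352 and 0.225 against 0.111, 0.178 and 0.318 with shEmpty. For Naip6 the interaction of -4.39 was lost without TET TKO shEmpty replicate 2 (-2.68, adjusted p = 0.515).

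The lincRNA Gm17514 had no read in the TET TKO libraries and 8.81, 9.48 and 9.06 in WT cells, at least 125-fold lower against 3 reads over the TET TKO group. Col6a5, a collagen VI chain, was at 0.185 and 0.257 against 23.5, 25.5 and 26.6. Slc15a2, a peptide transporter, was at 0.602 and 0.616 against 20.1, 17.3 and 16.4, and Asb4, an ankyrin repeat and SOCS box gene, at 0.463 and 0.308 against 11.1, 8.36 and 7.41. None of these groups overlapped, as the rule required. 2410141K09Rik, Gm13394, a pseudogene, and Gm10159 also differed with shEmpty, with log2 differences of -6.88, -5.73 and -4.94 after knockdown and -6.84, -5.59 and -5.48 with shEmpty. The remaining 2 of the 12, Hoxb1 and Rarb, are described with the retinoic acid genes. All 24 genes named by size were also called without WT replicate 1.

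**Figure D2:**
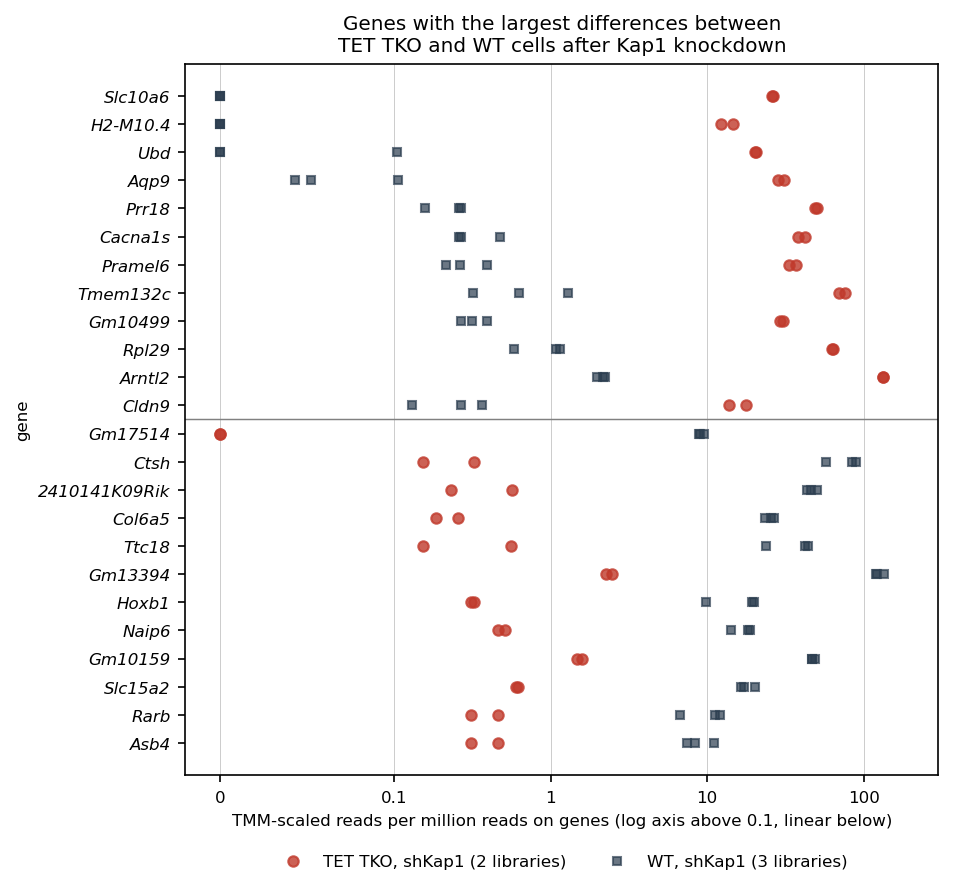
TMM-scaled CPM (x axis, log above 0.1 and linear below) in each shKap1 library for the 12 genes higher (above the grey line) and the 12 lower in TET TKO cells. Circles are the 2 TET TKO and squares the 3 WT libraries, and no gene has overlapping groups, as the rule required.

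In some genes the interaction moved a gap that existed with KAP1 present. 2810429I04Rik was at 11.46 and 11.7 in TET TKO and 0.111, 0.249 and 0.177 in WT cells with shEmpty, and at 55.5 and 57.7 against 35.2, 34.8 and 36.4 after knockdown. The serine protease inhibitor gene Serpina3m was at 15.9 and 16.1 against 0.167, 0.0712 and 0.141 with shEmpty and at 33.7 and 34.5 against 5.45, 9.31 and 9.44 after knockdown. In both, every WT library was higher with shKap1 than with shEmpty and the gap narrowed, with interaction terms of -5.23 and -4.91. Gm8711, at 6.43 and 6.57 against 4.09, 3.98 and 4.37 after knockdown, had no read in the TET TKO libraries with shEmpty and 0.111, 0.285 and 0.318 in WT cells. Its log2 difference of 0.65 after knockdown was not called, whereas the interaction was, a fitted change against a group without reads that gives no size.

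Genes of the 2-cell embryo had the highest share called among the lists with more than 2 genes. Of 41 genes listed, 29 were in the files and 28 could be tested, of which 21 were higher and 1 lower in TET TKO cells after knockdown, against 6.1% and 4.97% of all genes, with a median log2 difference of 1.31 against 0.014 over all genes. With shEmpty the median was -0.77, and the interaction was positive in 9 genes and negative in 0. Without WT replicate 1 the counts were 17 and 1, and without TET TKO replicate 1 or 2 only 10 and 12 were higher, so that the call of many members rests on both TET TKO libraries. Reads of Zscan4, Tdpoz and other 2-cell genes can come from near-identical copies, which makes the values of single members uncertain.

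Among regulators, Dux, the double homeobox factor that activates 2-cell genes, was at 8.56 and 8.93 in TET TKO and 2.62, 4.50 and 5.60 in WT cells (log2 1.04, adjusted p = 0.00989, not called without either TET TKO library or WT replicate 1). Zscan4c and Zscan4d encode zinc finger proteins that mark 2-cell-like cells. Zscan4c was at 157 and 147 against 55.4, 65.7 and 63.2, a call that was lost without any 1 of the 5 libraries, and Zscan4d at 271 and 267 against 89.5, 94.6 and 89.8. The TET TKO libraries lay above every WT library in these genes, and the gap of Zscan4d grew by 2.78 with knockdown. Zfp352, a zinc finger gene of the 2-cell stage, was at 48.6 and 48.7 against 8.81, 10.7 and 10.2 after knockdown and 0.599 and 0.901 against 1.05, 1.17 and 1.66 with shEmpty. Its log2 difference was 2.29 ± 0.30 (adjusted p = 5.19e-05) and its gap grew by 3.11. The TET TKO libraries thus lay below every WT library with shEmpty and above every WT library after knockdown.

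The same held for Tdpoz3, a TRAF and POZ domain gene, at 60.9 and 61.8 against 19.4, 21.0 and 20.6 after knockdown and 0.740 and 0.376 against 0.777, 1.07 and 0.991 with shEmpty. Spz1 (9.35 and 7.60 against 1.68, 1.82 and 1.23), Sp110 (3.80 and 4.16 against 1.05, 1.13 and 1.07) and Ubtfl1 (25.4 and 24.9 against 6.71, 8.66 and 8.21) were among the 5 members with the smallest p. Nkx1-2 was the member called lower, at 12.3 and 13.3 against 23.0, 26.2 and 27.9, and fell short of 2-fold with the replicate block (-0.97) and without TET TKO replicate 1 or WT replicate 2 or 3. Iqcf1 and Lrrn4, which the study chose on these samples for transcripts that start in a MERVL LTR and which are therefore no independent evidence of a direction, were at 3.66 and 3.95 against 0.157, 0.173 and 0.160 and at 36.3 and 34.1 against 8.07, 9.14 and 8.37. Both were called higher, and the gap of Lrrn4 grew by 1.62.

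**Figure D3:**
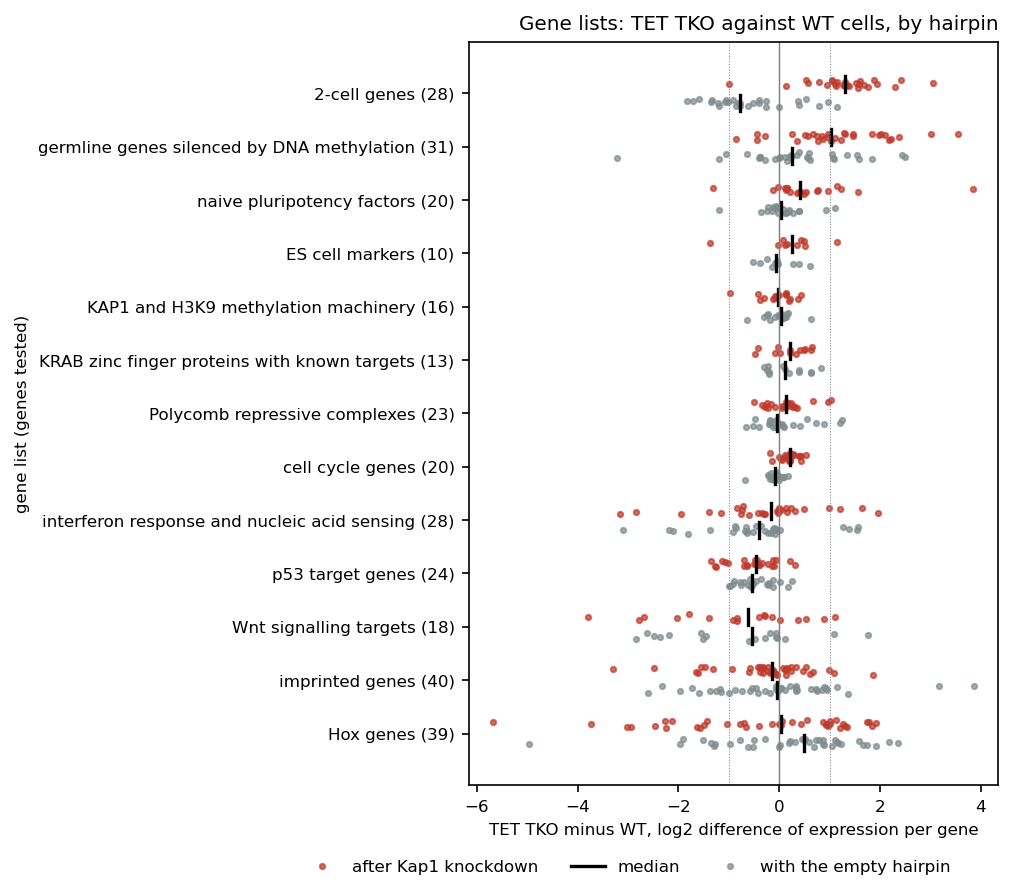
Log2 difference between TET TKO and WT cells (x axis) of each tested gene of 13 lists, after Kap1 knockdown (red) and with shEmpty (grey), with black bars at the medians and dotted lines at 2-fold. The 2-cell genes have a median of 1.31 after knockdown and of -0.77 with shEmpty, while the p53 targets have medians of -0.47 and -0.53.

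Germline genes that DNA methylation is known to silence were the list with the next most calls in 1 direction: 15 of 31 tested (32 listed) were higher and 0 lower after knockdown, against 6.1% and 4.97% of all genes. Their median log2 difference was 1.03 after knockdown and 0.25 with shEmpty, and the count was 15 without WT replicate 1, where Sycp3 was no longer 2-fold (0.96). With shEmpty 9 of the 31 were already called higher and 2 lower, against 5.66% and 4.8% of all genes. The interaction was positive in 9 of the 31 and negative in 1, against 2.08% and 2.13% of all genes. Stk31, a germ cell kinase gene, was at 70.1 and 72.5 in TET TKO and 8.70, 9.48 and 8.31 in WT cells after knockdown and at 24 and 21.2 against 7.00, 7.90 and 7.75 with shEmpty. The lines did not overlap under either hairpin, and the difference of 3.01 ± 0.0960 (adjusted p = 2.20e-13) was larger than with shEmpty by 1.43 (adjusted p = 3.74e-06). Xlr3a was at 20.3 and 21.3 against 1.78, 1.65 and 1.92. Of the other meiotic and chromatin genes, Brdt, a testis bromodomain gene, was at 9.49 and 10.5 against 1.42, 2.29 and 1.97, and Sycp1, of the synaptonemal complex, at 9.40 and 10.5 against 1.94, 2.56 and 2.83.

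Of the germline genes that act on RNA and piRNAs, Piwil1, which encodes a PIWI protein, was at 3.43 and 3.49 against 0.577, 0.736 and 0.906. The RNA-binding protein gene Dazl was at 50.7 and 52.1 against 10.4, 14.1 and 14.2 and the helicase gene Ddx4 at 41.7 and 42.5 against 21.5, 20.4 and 20.1. Tex19.1, a gene of germ and pluripotent cells, was at 63.6 and 59.1 against 21.6, 22.9 and 22.3. In none of these did the lines overlap. Hormad1, Tex101, Tex19.2, Mael, Mov10l1, Dpep3 and Sycp3 were called higher too, with log2 differences from 1.11 to 2.17, and the call of Mov10l1 was lost without TET TKO replicate 1.

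Promoters of such genes often hold the E-box-like sequence CACGTG, the core of the element bound by the E2F6 and MGA complex in mESCs. In RefSeq promoters of GRCm38.p6, 250 bases before to 50 after the start, CACGTG (a palindrome, so both strands at once) lay in 9 of 15 called germline genes (60.0%) and in 4 of 11 that were not called (36.4%), against 9.65% of all 11944 promoters of genes tested and 0 of 13 of called 2-cell genes. GCGGGA, a letter string of E2F sites searched on both strands, lay in 6 of the 15 called, in 3 of the 11 others (27.3%), in 32.9% of all promoters and in 1 of 13 of called 2-cell genes. The 3 promoters below show the called genes Stk31, Brdt and Piwil1, on GRCm38.p6 at chr6:49395289-49395588, chr5:107330944-107331243 and chr5:128735996-128736295, all on the plus strand, with CACGTG in capitals.

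Stk31: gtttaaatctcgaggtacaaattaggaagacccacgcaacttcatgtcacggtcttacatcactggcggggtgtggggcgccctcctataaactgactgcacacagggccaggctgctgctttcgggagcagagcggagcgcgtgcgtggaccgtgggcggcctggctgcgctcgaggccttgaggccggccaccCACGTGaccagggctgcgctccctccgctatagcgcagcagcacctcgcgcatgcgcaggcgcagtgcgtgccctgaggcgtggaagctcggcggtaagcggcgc
Brdt: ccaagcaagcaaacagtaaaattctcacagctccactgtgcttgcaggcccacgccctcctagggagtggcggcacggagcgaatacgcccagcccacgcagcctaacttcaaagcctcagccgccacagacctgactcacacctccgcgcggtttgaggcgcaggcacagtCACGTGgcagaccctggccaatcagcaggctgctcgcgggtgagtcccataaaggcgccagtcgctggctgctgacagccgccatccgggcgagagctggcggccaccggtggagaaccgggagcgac
Piwil1: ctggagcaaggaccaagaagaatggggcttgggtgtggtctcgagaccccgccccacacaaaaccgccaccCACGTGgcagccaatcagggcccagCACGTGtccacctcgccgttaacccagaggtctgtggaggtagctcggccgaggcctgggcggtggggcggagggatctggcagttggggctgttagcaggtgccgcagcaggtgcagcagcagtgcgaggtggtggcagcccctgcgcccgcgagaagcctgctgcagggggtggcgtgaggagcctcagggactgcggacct

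These are reference sequences, and a match is a string of letters and not a bound site. The median CpG content was 6.33 per 100 bases over all promoters, 3.33 in those of genes called higher and 4.0 in those of genes called lower. It was 6.67 in promoters of called germline genes, 5.33 in those of germline genes not called and 1.0 in those of called 2-cell genes.

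Of 20 naive pluripotency factors tested, 3 were higher and 1 lower after knockdown, against 6.1% and 4.97% of all genes (median 0.41), and 4 and 1 without WT replicate 1. Tcl1, a coactivator of AKT expressed in mESCs, was at 34.2 and 37.1 in TET TKO and 3.30, 2.21 and 1.92 in WT cells after knockdown and 127 and 120.5 against 74.1, 49.5 and 49.4 with shEmpty. Its level was lower with shKap1 in both lines, in WT more so, and the gap grew by 2.74. Prdm14, a repressor of DNA methyltransferase genes in naive cells, was at 21.9 and 21.7 against 7.76, 10.3 and 9.91 (log2 1.22). Nr0b1, an orphan nuclear receptor gene, was at 28.9 and 31.1 against 12.2, 9.83 and 8.53. The homeobox gene Gbx2 was lower, at 13.8 and 13.1 against 38.6, 29.6 and 32.1. Tdgf1 and Tbx3 had log2 differences of 0.97 and 0.78 and fell short of 2-fold. Of 13 formative and primed state genes tested (15 listed), Tcf15 (2.41 and 2.52 against 0.996, 0.779 and 1.07) and Foxd3 (11.8 and 15.4 against 5.50, 5.02 and 6.61) were higher and 0 lower, with 3 higher without WT replicate 1. Foxd3 was not called without TET TKO replicate 2.

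Of 40 imprinted genes tested (45 listed, 42 in the files) 1 was higher (2.5%) and 7 lower (17.5%) after knockdown, against 6.1% and 4.97% of all genes, and 2 and 7 without WT replicate 1. With shEmpty 3 were higher and 9 lower, and the median log2 difference was -0.15 after knockdown and -0.041 with shEmpty. Impact was at 163 and 164 against 563, 486 and 496 and Peg3, a paternally expressed zinc finger gene, at 47.7 and 46.8 against 148, 125 and 122. The noncoding RNAs Meg3 and Rian, from 1 maternally expressed cluster, were at 206 and 186 against 638, 584 and 565 and at 256 and 252 against 798, 709 and 719. Mirg of that cluster was lower as well (log2 -1.32). Peg10, a gag-derived gene, was at 158 and 163 against 2541, 1134 and 1051, and its neighbour Sgce had a log2 difference of -2.49. Grb10, an adaptor of growth factor receptors, was the member called higher, at 155 and 144 against 95.7, 57.1 and 58.5, and was not called without WT replicate 2 or 3. H19 and Igf2 had log2 differences of -0.049 and 0.068 and were not called. All 5 libraries belong to cell lines without alleles being told apart, so the parental origin of the reads was not examined.

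Of 24 targets of p53 tested, 0 were called higher and 5 lower, against 6.1% and 4.97% of all genes, and 0 and 6 without WT replicate 1, with a median log2 difference of -0.47 after knockdown and -0.53 with shEmpty. In 19 of 24 every TET TKO library lay below every WT library, against 27.9% of all genes. Cdkn1a, the p21 inhibitor of cyclin-dependent kinases, was at 159 and 153 against 344, 352 and 336 (log2 -1.14). Btg2, an antiproliferative gene, was at 82.7 and 79.9 against 175, 174 and 162, and the kinase gene Plk2 at 56.1 and 55.0 against 139, 148 and 139. Ddit4, an inhibitor of mTORC1, and Perp were lower too (log2 -1.25 and -1.01), Perp short of 2-fold without TET TKO replicate 1 or WT replicate 2. Of the 20 cell cycle genes tested none was called in either direction, with a median of 0.21. In 16 of them the TET TKO libraries lay above all WT libraries, against 30.2% of all genes, as in Aurka (169.5 and 169.9 against 130.4, 126 and 133) and Ccnd1 (286 and 284 against 210.4, 191 and 191).

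Of 18 Wnt targets tested 1 was higher and 6 lower, against 6.1% and 4.97% of all genes (median -0.62 after knockdown, -0.54 with shEmpty), and 0 and 6 without WT replicate 1. The ligand gene Wnt8a was at 3.15 and 3.75 against 62.3, 42.3 and 38.1, the target Sp5 at 5.00 and 7.34 against 28.7, 20.6 and 25.8, and Rnf43, which encodes a ligase that removes Wnt receptors, at 0.648 and 0.616 against 2.94, 5.28 and 4.90. None of these groups overlapped. The homeobox genes Cdx1 and Cdx2 were lower (log2 -2.68 and -1.39). The call of Wnt3 (-1.78) was lost without WT replicate 1 or TET TKO replicate 2, in DESeq2 (adjusted p = 0.0968) and in the fit of the 5 libraries alone (adjusted p = 0.0707), and that of Nkd2, the member called higher (1.12), without WT replicate 1 or 3 or either TET TKO library.

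Of 39 Hox genes tested (42 listed) 5 were higher (12.8%) and 10 lower (25.6%) after knockdown, against 6.1% and 4.97% of all genes, 3 and 11 without WT replicate 1, and 5 lower without either TET TKO library. The members called lower lay in the Hoxa and Hoxb clusters and those called higher in Hoxc and Hoxd. Among the lower genes, Hoxa2, Hoxa3 and Hoxa5 had log2 differences of -3.01, -2.45 and -2.93, and Hoxb1, Hoxb2 and Hoxb3 of -5.67, -1.63 and -3.73. The genes higher were Hoxc12 (2.45 and 2.21 against 0.577, 0.649 and 0.853), Hoxd11 (3.24 and 3.85 against 0.472, 0.909 and 1.71), Hoxd9 (9.21 and 10.1 against 1.57, 3.59 and 2.35), Hoxd8 and Hoxd1, the last 2 not called without WT replicate 1. Hoxd1, Hoxa3 and Hoxb2 were not called without either TET TKO library, and Hoxb2 not without WT replicate 2 or 3 or the read filter. Most are close to silent in mESCs, and the level of Hoxa5 was 0.972 and 1.03 against 4.51, 9.09 and 9.33.

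Hoxb1 and Rarb, both among the 12 genes with the largest deficit, are direct targets of retinoic acid, which is why other genes of that pathway were looked up after these values were seen. Hoxb1 was at 0.324 and 0.308 in TET TKO and 9.86, 20.0 and 19.24 in WT cells. Rarb, which encodes a retinoic acid receptor, was at 0.463 and 0.308 against 6.71, 12.1 and 11.1, a log2 difference of -4.67 ± 0.571 (adjusted p = 1.59e-05). With shEmpty Rarb was at 0.0705 and 0.0376 against 0.389, 1.32 and 1.49, so that the lines differed under either hairpin. Stra6, the receptor that takes up retinol, was at 0.833 and 0.359 against 9.12, 13.2 and 12.7. Stra8, the meiosis gene induced by retinoic acid, was at 2.78 and 2.82 against 14.9, 50.8 and 50.0, but its call (adjusted p = 0.0285) was lost without either TET TKO library or WT replicate 2 or 3. Cyp26a1, which degrades retinoic acid, was at 0.0926 and 0.205 against 0.262, 0.736 and 0.586, with a call that was lost in 8 of the alternatives. Crabp1, a binding protein, went the other way, at 6.48 and 6.67 against 1.21, 1.52 and 1.49, and Rarg and Crabp2 had log2 differences of -0.27 and -0.88 without a call.

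Rarb and Cyp26a1 carry the retinoic acid response element as a direct repeat with a spacer of 5 bases. That was known beforehand and the letters searched are a spelling of it, so matches in these promoters were fixed in advance. Neither the matches nor their rarity bears on why these genes were called. The letters GTTCA, 5 further bases and AGTTCA, searched on both strands, lay in 3 of the 11944 promoters (0.0251%), those of Cyp26a1, Rarb and Tnfsf13b, the last of which was not called (-0.95). The first 2 are printed with the match in capitals, on GRCm38.p6 at chr14:16575427-16575726 on the minus strand for Rarb and at chr19:37697558-37697857 on the plus strand for Cyp26a1.

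Rarb: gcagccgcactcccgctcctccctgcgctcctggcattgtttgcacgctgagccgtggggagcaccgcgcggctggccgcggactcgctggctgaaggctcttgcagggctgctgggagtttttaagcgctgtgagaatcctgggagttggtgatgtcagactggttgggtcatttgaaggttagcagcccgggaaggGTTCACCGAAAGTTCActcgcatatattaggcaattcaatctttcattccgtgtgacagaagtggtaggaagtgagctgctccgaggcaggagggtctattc
Cyp26a1: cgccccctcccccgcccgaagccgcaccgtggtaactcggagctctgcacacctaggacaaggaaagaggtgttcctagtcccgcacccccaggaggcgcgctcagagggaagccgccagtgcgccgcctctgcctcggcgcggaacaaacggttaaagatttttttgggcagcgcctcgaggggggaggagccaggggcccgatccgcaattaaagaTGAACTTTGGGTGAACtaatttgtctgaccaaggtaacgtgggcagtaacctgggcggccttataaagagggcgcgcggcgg

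The match in Cyp26a1 is on the reverse strand of the printed sequence, and no match elsewhere says only that these letters are not in the window.

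Lineage genes are given against the 6.1% of all genes called higher and the 4.97% called lower. Of 9 neuroectoderm genes tested (13 listed) 0 were higher and 4 (44.4%) lower: Gbx2, Zic1 (0.278 and 0.308 against 1.26, 1.56 and 2.03), Pax3 (0.278 and 0.462 against 1.31, 1.86 and 1.81) and Pax6, with 3 lower without WT replicate 1. The call of Pax3 was lost without TET TKO replicate 1, and that of Pax6 without either TET TKO library, without WT replicate 1 or 3 and without the read filter. Of 13 trophoblast genes tested (17 listed) 0 were higher and 3 (23.1%) lower, with 3 lower also without WT replicate 1, namely the keratin gene Krt7 (2.41 and 2.46 against 8.65, 5.07 and 5.65), Cdx2 and the receptor gene Fgfr2 (2.31 and 2.05 against 18.1, 6.93 and 6.72). Of 15 mesoderm genes tested (16 listed) Gsc and Mixl1 were higher and Cdx1, Gata2 and Wnt3 lower, with 1 and 2 without WT replicate 1. Mixl1 was not called without TET TKO replicate 2 or WT replicate 1 or 3, and Gata2 not without TET TKO replicate 1. Of 18 primitive endoderm genes tested, 2 were higher, the laminin gene Lamb1 (92.2 and 92.1 against 48.1, 39.9 and 37.5) and Amn, and 2 lower, Fgfr2 and Cubn, with 1 and 2 without WT replicate 1. The call of Cubn was lost in 6 alternatives, among them limma-voom (adjusted p = 0.079), and that of Amn in 5, among them DESeq2 (adjusted p = 0.0709). Among 21 Nodal and BMP genes tested (23 listed) Lefty2 was higher and Id1, a target of BMP signals, lower (3.10 and 3.49 against 13.5, 10.9 and 11.9), with 3 and 1 without WT replicate 1. Lefty2 was not called without either TET TKO library or WT replicate 2 or 3. Of 8 clustered protocadherins tested (25 listed) 0 were higher and 1, Pcdhb22, was lower, though not without TET TKO replicate 2.

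Genes that write, read or remove the marks under study come next, again against 6.1% of all genes called higher and 4.97% lower. Of 16 genes of KAP1 and H3K9 methylation none was called in either direction. Suv39h1, an H3K9 methyltransferase gene, came closest at 22.0 and 23.6 against 48.2, 42.4 and 43.4 (log2 -0.97), and Setdb1, the methyltransferase that KAP1 recruits, was at 238 and 242 against 169.5, 182 and 184 (0.43). None of 13 KRAB zinc finger genes tested (14 listed) was called, although the gap of Zfp809, which binds retroviral primer binding sites, moved by -1.06 between hairpins.

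Of 14 genes of DNA methyltransferases and maintenance, 0 were higher and 2 lower, the methyl-CpG readers Mbd2 (13.3 and 13.3 against 27.4, 29.9 and 25.4) and Zbtb4, both short of 2-fold without WT replicate 2, Zbtb4 also with the replicate block (-0.96) and not called without TET TKO replicate 2. The methyltransferase genes Dnmt1 and Dnmt3a had log2 differences of 0.086 and -0.67, Uhrf1 of 0.33, and the cofactor gene Dnmt3l of 1.79 (adjusted p = 0.0796), at 148 and 149 against 40.8, 42 and 45.8. Of 15 genes of TET enzymes and active demethylation, the TET genes were lower and 2 were higher. These were Tdg, the glycosylase that excises oxidised 5mC (19.4 and 18.3 against 8.86, 8.05 and 8.69), and Dppa3, which guards DNA methylation in the zygote (25.2 and 22.7 against 12.5, 7.01 and 8.15, not called without either TET TKO library or WT replicate 2 or 3). Among 28 interferon and nucleic acid sensing genes tested (31 listed) 1 was higher, Oas1a (0.983 without WT replicate 1, no longer 2-fold, and not called without TET TKO replicate 1), and 3 lower, Isg15 (0.185 and 0.0513 against 0.577, 1.08 and 1.01) and the sensors Ifih1 and Tlr3, whose calls were lost without TET TKO replicate 1, that of Ifih1 also without replicate 2.

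Genes called in the same direction lay together in some places, counted in windows of 2 Mb that were looked at after the values were seen. Only windows with a high share called were kept, so a high share was required and is no result of its own. Whether members of a window are near-identical copies was not examined, so they may not be separate observations. On chr4 between 142 and 144 Mb (mm9) 15 of 35 genes tested were higher, on chr5 between 94 and 96 Mb 13 of 14, and on chr7 between 14 and 16 Mb 12 of 19. With shEmpty these windows held 2, 0 and 0 genes called higher. On chr14 between 42 and 44 Mb 8 of 18 and between 44 and 46 Mb 7 of 21 were higher, with 8 and 8 higher with shEmpty, and on chr4 between 100 and 102 Mb 7 of 20, with 4. Over all genes 6.1% were higher and 4.97% lower. On chr6 between 52 and 54 Mb, around the Hoxa cluster, 11 of 30 were lower, and between 4 and 6 Mb 5 of 13 (Col1a2, Sgce, Peg10, Pon3 and Asb4), with 6 of 13 lower with shEmpty. Medians by chromosome lay between -0.031 and 0.13, with chr8 at 0.13 after knockdown and 0.11 with shEmpty. On chr13 the upper quartile was 0.6625 with shEmpty, against at most 0.3949 on any other chromosome, and 0.388 after knockdown. Many chr13 genes were thus higher in TET TKO cells with shEmpty. That shift can enter the interactions of chr13 genes, where Naip6, Gm17514 and Tgfbi lie, and its cause was not tested.

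To see how TE expression differed, reads on LINE, SINE, LTR and DNA elements were counted against the same gene totals. They amounted to 8.43 and 8.30% of the reads on genes in TET TKO and to 6.85, 7.40 and 7.31% in WT cells after knockdown, and the groups did not overlap. MERVL took 8.09 and 8.00% of TE reads in TET TKO and 2.99, 3.57 and 3.57% in WT cells. IAPEz, the IAP with the most reads, took 5.09 and 5.12% against 6.84, 7.99 and 7.87%. The lines thus differed in the mix of TE transcripts as well as in their amount.

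Over 833 sums, of all integrants of each of 831 families and of the IAPEz copies with IAPLTR1 and with IAPLTR2, 64 (7.68%) were higher and 8 (0.96%) lower in TET TKO cells, and 53 and 10 without WT replicate 1. With shEmpty 24 (2.88%) and 14 (1.68%) were called, and the interaction was positive in 30 (3.6%) and negative in 6 (0.72%), or in 20 and 6 without WT replicate 1. When scaled to TE totals instead, it was positive in 16 and negative in 10 families, and with shEmpty 31 were higher and 11 lower. By class, 56 of 497 LTR families were higher and 5 lower, 5 and 0 of 138 LINE families, 0 and 0 of 36 SINE families, and 3 and 3 of 160 DNA families. The median log2 difference over all families was 0.19. Of the 118 families in the young or well studied groups that were singled out by name, 20 were higher and 1 lower.

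MERVL stood at 6748 and 6586 CPM in TET TKO and at 2004, 2541 and 2521 in WT cells after knockdown, and at 196 and 190.1 against 164, 245 and 267 with shEmpty. The lines overlapped with shEmpty and were apart after knockdown. The log2 difference of 1.5 ± 0.386 (adjusted p = 0.0111, edgeR) was not called without TET TKO replicate 1 (1.48, adjusted p = 0.0573) and was 1.39 (adjusted p = 0.0451) without WT replicate 1. The change of the gap by 1.72 was not called (adjusted p = 0.0685), but passed with limma-voom (adjusted p = 0.0147), with DESeq2 (adjusted p = 0.0073) and in a fit of the 10 WT and TET TKO libraries alone (adjusted p = 0.0119). MT2_Mm, the LTRs of MERVL that stand alone, were at 484 and 495 against 147, 201 and 189.7 after knockdown and 29.3 and 25.4 against 23.2, 35.0 and 36.2 with shEmpty. Their log2 difference was 1.45 ± 0.279 (adjusted p = 0.00202) and the gap grew by 1.66 (adjusted p = 0.0234), a call that was lost without any 1 of 7 libraries, WT replicate 1 among them (adjusted p = 0.0569), and under TE scaling (adjusted p = 0.0544).

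IAPEz as a whole was at 4246 and 4216 against 4587, 5686 and 5555 and was not called (log2 -0.32, adjusted p = 0.357), although both TET TKO libraries lay below the WT libraries. With shEmpty it was at 82.6 and 80.6 against 94.9, 104 and 113, so that both lines reached much higher levels with shKap1. Split by LTR, the IAPEz integrants with IAPLTR1 were at 2741 and 2715 against 3639, 4488 and 4383, and those with IAPLTR2 at 1483 and 1481 against 927, 1170.0 and 1146. The lines were apart in opposite directions (log2 -0.61, adjusted p = 0.0786, and 0.46, adjusted p = 0.173), and neither sum was called. MMERVK10C, a related ERVK family, was at 1740.0 and 1701 against 1152, 1238 and 1202 (log2 0.52, short of 2-fold).

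Other IAP families, outside the naming rule and chosen after their values were seen, were higher in TET TKO cells under both hairpins. IAPEy was at 147 and 149 against 31.2, 41.1 and 38.6 after knockdown and 5.22 and 4.36 against 1.78, 1.53 and 1.63 with shEmpty. IAPEY3 was at 279 and 277 against 98.9, 108 and 109 and 37.9 and 38.2 against 17.5, 14.7 and 14.8. Their gaps moved little, by 0.45 and 0.11, and neither change was called. IAPLTR2_Mm, the solitary LTRs, differed by 1.13. ORR1A0, a MaLR family chosen in the same way, was at 401 and 399 against 179.6, 194 and 191, a difference of 1.09.

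In RLTR45, also chosen after its values were seen, the gap narrowed. It was at 1060.0 and 1019 in TET TKO and 26.9, 63.4 and 54.2 in WT cells with shEmpty, and at 966 and 1043 against 139.8, 327 and 259.9 after knockdown. The TET TKO level was alike under both hairpins while each WT library was higher with shKap1, and the gap moved by -2.37 (adjusted p = 0.0121). ERVB7_4-LTR_MM, named by the rule, showed the same order, at 9.41 and 8.22 against 0.222, 0.249 and 0.425 with shEmpty and 12.0 and 10.9 against 2.78, 3.07 and 2.40 after knockdown. The other rule-named families with large differences were rare. RLTR46, MamGypLTR1c, RLTR10F, Charlie4 and MER101B had log2 differences of 2.18 to 2.77 with at most 2.05 CPM. Of the lower families LTR82A was at 1.81 and 2.46 against 13.5, 10.7 and 11.51, and MER123, Kanga1b, RLTR30D_MM, LTR53B and RLTR44D had log2 differences of -1.15 to -1.55, Kanga1b without a call when WT replicate 1 was left out (adjusted p = 0.0586).

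Of the 12 families of young L1Md elements 1 was called higher and 0 lower after knockdown, and L1Md_A and L1Md_T had the values that follow. L1Md_A was at 1012 and 984 against 599, 712 and 718 after knockdown and at 145 and 148 against 299.9, 256 and 260.0 with shEmpty, so that TET TKO cells were above WT with shKap1 and below WT with shEmpty. The difference of 0.56 after knockdown was short of 2-fold, and the change of the gap by 1.45 was called (adjusted p = 4.14e-05). L1Md_T was at 2117 and 2065 against 2344, 2185 and 2228 after knockdown and at 825 and 1324 against 2207, 1970.0 and 1961 with shEmpty. Its difference of -0.11 after knockdown was not called.

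**Figure D4:**
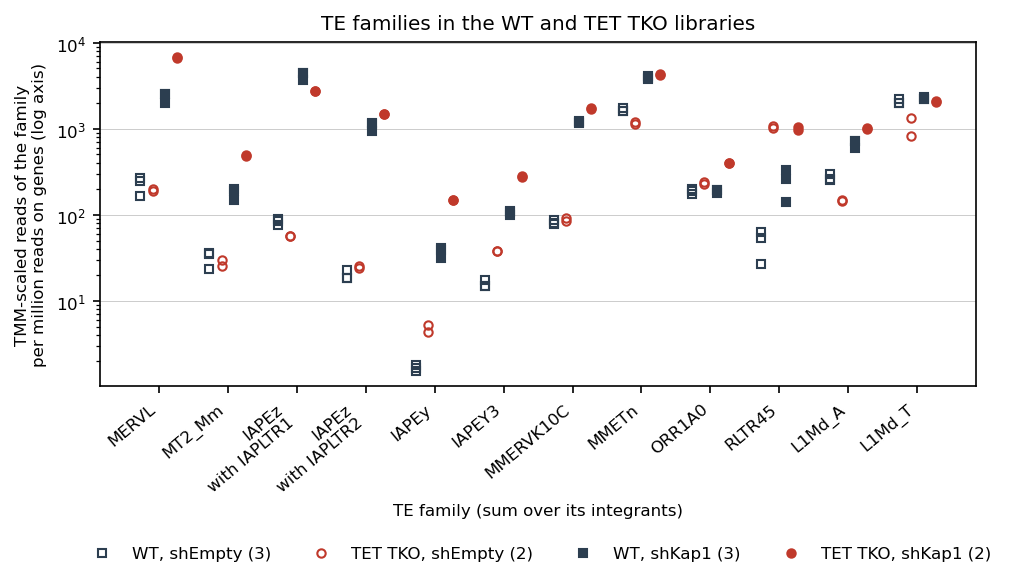
TMM-scaled CPM (y axis, log) summed over the integrants of 12 TE families in each library, with squares for WT and circles for TET TKO cells, open with shEmpty and filled with shKap1. MERVL reaches 6748 and 6586 in TET TKO cells after knockdown against 2004, 2541 and 2521 in WT cells, while RLTR45 stays near 1060.0 and 1019 in TET TKO cells under both hairpins.

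At single integrants, 123880 could be tested of 3404964 in the track. After knockdown 7079 (5.71%) were higher and 2366 (1.91%) lower in TET TKO cells, 5583 and 2205 without WT replicate 1. With shEmpty 2160 (1.74%) and 2891 (2.33%) were called, and 1084 integrants were higher under both hairpins, 15.3% of the list after knockdown and 50.2% of that with shEmpty. The interaction was positive in 1030 (0.831%) and negative in 301 (0.243%). By class, 13.9% of 26970 LTR integrants were higher and 3.69% lower, 6.43 and 2.12% of 27754 LINEs, 2.21 and 1.1% of 65077 SINEs and 2.82 and 1.64% of 4079 DNA elements. An annotated exon overlapped 364 of the 7079 higher and 290 of the 2366 lower integrants, against 12081 of all tested, so that for these the transcript of the gene and of the TE cannot be told apart.

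Of the 1541 MERVL integrants in the track 1072 could be tested. Of 815 tested MERVL integrants with MT2_Mm LTRs 567 (69.6%) were higher and 9 lower, of 257 without them 132 (51.4%) and 1, and of 546 solitary MT2_Mm 215 (39.4%) and 2. Without WT replicate 1 the first of these counts was 502 and 7, and the last 145 and 1. Of the solitary MT2_Mm, 122 and 109 were higher without TET TKO replicate 1 and 2 and 38 in DESeq2, which also gave the lowest count for MERVL with MT2_Mm (408). The copies with the most reads among those called, chosen after their values were seen, had MT2_Mm LTRs at both ends. The one at chr16:3468160-3474571 (mm9, plus strand) was at 73.2 and 70.7 against 19.4, 22.0 and 22.1 after knockdown and 1.41 and 1.69 against 1.17, 1.89 and 1.63 with shEmpty. The one at chrX:53323606-53328531, plus strand, which holds the microRNA gene mmu-mir-1194, was at 54.7 and 52.6 against 14.9, 24.4 and 24.3, and that at chr7:11755295-11761733, plus strand, at 62.5 and 58.9 against 27.8, 32.1 and 22.9. In these 3 the groups were apart and the gap grew, by 1.80, 2.33 and 2.08. The fourth, at chr7:11606835-11613312 on the plus strand, was at 60.0 and 50.5 against 13.8, 14.8 and 19.6 (log2 1.78), and its interaction of 2.29 was not called (adjusted p = 0.336). Without WT replicate 1 the copies on chr16 and chrX were called and those on chr7 were not.

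IAPEz integrants were also counted by their LTR. With IAPLTR1, 106 of 1551 (6.83%) were higher and 235 (15.2%) lower in TET TKO cells, against 5.71% and 1.91% of all integrants. With IAPLTR2, 166 of 968 (17.1%) were higher and 17 (1.76%) lower. The share higher with IAPLTR1 and the share lower with IAPLTR2 were thus near those of all integrants. Without WT replicate 1 the counts were 88 and 264, and 130 and 18, so lower calls stayed the more frequent with IAPLTR1 and higher calls with IAPLTR2. Over all alternatives with the same 2-fold minimum, 45 to 110 copies with IAPLTR1 were higher and 163 to 264 lower, and 86 to 176 with IAPLTR2 were higher and 6 to 20 lower, with the lowest counts in DESeq2. The 17 lower copies with IAPLTR2 became 10 without TET TKO replicate 1. The integrant with an IAPLTR1_Mm LTR in Rspry1 (chr8:97140412-97145772, minus strand) was at 8.01 and 6.93 against 74.3, 90.1 and 106. It had the largest difference of the 3 most-read copies called lower. One with IAPLTR2b LTRs at chr4:60045741-60052220, minus strand, was at 39.8 and 42.1 against 17.1, 18.5 and 16.7 and had the most reads of the copies called higher, though it was not called by limma-voom (adjusted p = 0.407). The next, with IAPLTR1a_Mm LTRs at chr14:43197100-43201861, minus strand, went against its LTR group, at 36.8 and 35.5 against 13.8, 9.96 and 9.38 (log2 1.71). These copies were chosen after their values were seen. Over their first 450 bases, the called copies with IAPLTR1 held a median of 6.22 (higher) and 5.78 (lower) CpG per 100 bases and those with IAPLTR2 5.0 and 4.56, whereas MERVL with MT2_Mm held 1.33.

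**Figure D5:**
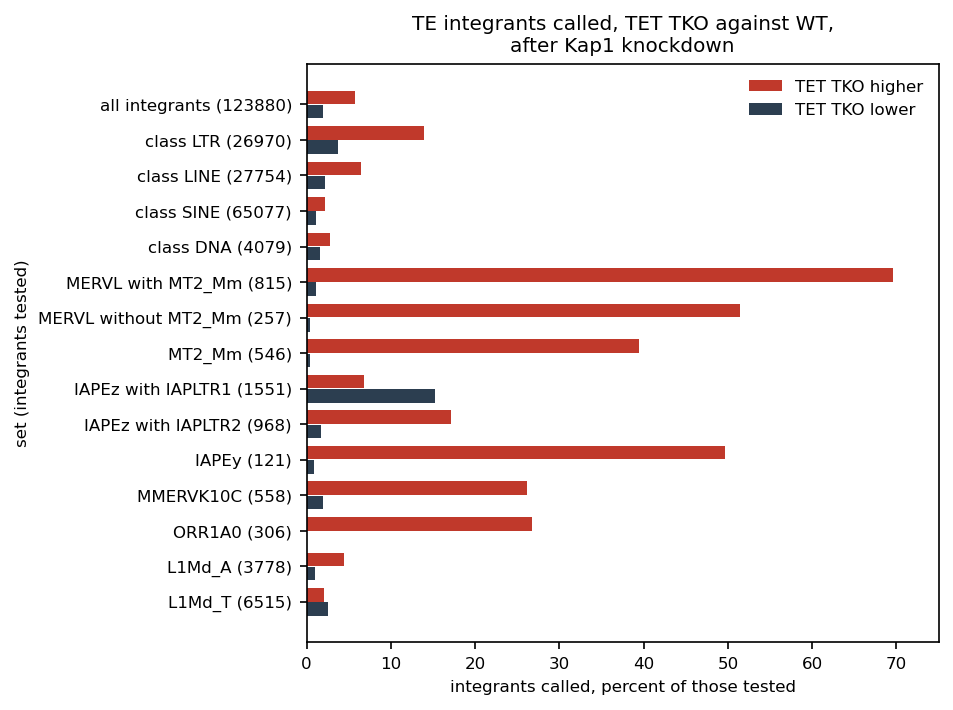
Percent of the tested TE integrants called higher (red) or lower (dark) in TET TKO cells after Kap1 knockdown (x axis, from 0), for all integrants, 4 classes and single families, with the number tested in brackets. MERVL with MT2_Mm reaches 69.6% higher, and IAPEz with IAPLTR1 has the longest dark bar of the sets drawn, 15.2% lower.

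Of other families, 60 of 121 IAPEy integrants (49.6%), 74 of 184 RLTR45 (40.2%), 82 of 306 ORR1A0 (26.8%) and 146 of 558 MMERVK10C (26.2%) were higher, with 1, 3, 0 and 11 lower. Of 121 MMVL30 integrants 6 (4.96%) were higher and 19 (15.7%) lower, against 5.71% and 1.91% of all integrants. L1Md_A had 169 of 3778 higher (4.47%) and 37 lower, which is below the share of all integrants called higher. L1Md_T had 135 of 6515 (2.07%) higher and 167 (2.56%) lower after knockdown, and 32 higher and 997 lower with shEmpty, with an interaction that was positive in 188 copies and negative in 12.

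The 6 integrants with the largest excess had no read in the WT libraries after knockdown. They were an L1_Mus1 at chr5:146306722-146309092 on the plus strand (19.3 and 18.5 in TET TKO cells, at least 384-fold higher against 3 reads over the WT group), an Lx3B at chr2:174845929-174846553 on the plus strand (11.7 and 11.4, at least 234-fold) and an RMER4B at chr9:120188042-120188545 on the plus strand (11.3 and 10.5). An ORR1C1 in an exon of Gm8909, a B1_Mus2 in an exon of Kif5b and an RMER17A2 at chr11:121765968-121766325 completed them. Of the 6 with the largest deficit, 3 were RLTR9E elements on chr13 between 65592611 and 66381399, the first of which had no TET TKO read and 12.3, 11 and 9.81 in WT cells (at least 151-fold lower). The lncRNA gene Gm17514 named above lies in that stretch. An MTE at chr5:100642545-100643053 and an Lx9 in Wdr27 had no TET TKO read either, and an ETnERV2 was the sixth. All 12 were called without WT replicate 1, and all 12 were called with shEmpty in the same direction.

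Genes with a TE in an exon on the same strand were counted by family. Of 53 tested genes with a MERVL or MT2_Mm exon, 25 (47.2%) were higher and 0 lower, against 6.1% and 4.97% of all genes. Of 30 genes with an IAPEz or IAP LTR exon 1 was higher and 3 lower, of 138 with an ORR1A exon 15 (10.9%) and 5, and of 105 with an L1Md exon 5 and 7. Counted instead by a TE in the first exon or within 1 kb before it, 24 of 48 genes were higher and 0 lower for MERVL or MT2_Mm, 0 and 0 of 17 for IAPEz or IAP LTRs, 13 and 2 of 97 for ORR1A, and 23 (13.4%) and 3 of 172 for L1Md. The called genes with MERVL or MT2_Mm there included microRNA and pseudogene entries, such as AC160543.1, AC162877.1, mmu-mir-1194 and Gm13360. Reads of such entries can be those of the element itself, so the share is not one of host genes alone. Iqcf1, chosen by the study, was also among the called genes. Tie1, a receptor tyrosine kinase gene of endothelium (chr4:118143796-118162666 on mm9), had a MERVL LTR at its first exon or within 1 kb before it and was at 43.9 and 39.7 against 0.734, 1.30 and 0.853 after knockdown and 2.57 and 1.99 against 0.333, 0.676 and 0.672 with shEmpty. Its log2 difference was 5.41 ± 0.251 (adjusted p = 3.32e-11), and its gap grew by 3.45. AI481877 was at 5.14 and 5.03 against 0.839, 0.823 and 1.07 and Gm12823 at 5.42 and 7.03 with no WT read. These genes were chosen after their values were seen.

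The study also mapped KAP1, histone marks and 5hmC in WT cells, which allows the called integrants to be described by the chromatin they had there. A KAP1 region overlapped 15.9% of the integrants higher in TET TKO cells, 22.1% of the lower ones and 7.38% of those not called. H3K9me3 that depended on KAP1 lay at 15.7, 21.9 and 6.63%, and H3K4me3 at 2.36, 9.43 and 7.45%. These pooled shares were not adjusted for the family or length of the integrants. LTR elements had a median length of 1290 bases if higher, 1050 if lower and 453 if not called. In the same order, KAP1 regions overlapped 61.6, 54.5 and 57.6% of MMERVK10C, 64.5, 43.2 and 55% of L1Md_A and 17, 33.5 and 17.6% of L1Md_T integrants. Of the 699 MERVL integrants called higher 27 (3.86%) overlapped a KAP1 region. IAPEz with IAPLTR1 did so by at least 1 base in all of the 106 higher, 235 lower and 1210 uncalled integrants, a measure that cannot tell them apart. Most of the integrant lay in a KAP1 region in 86.8% of the higher, 55.3% of the lower and 83.9% of the uncalled copies. In KAP1 regions of called integrants, the 5hmC signal of hMeDIP (immunoprecipitation of 5hmC DNA) changed with Kap1 knockdown by a median log2 ratio of 0.86 at higher and 0.77 at lower integrants, against 0.80 at the rest. The median over all regions of each kind was above 0 as well, at 0.619 in KAP1, 0.382 in H3K4me3, 0.26 in H3K27me3 and 0.182 in KAP1-independent H3K9me3 regions. That value comes from 1 pair of immunoprecipitates with their inputs and has no replicate check, since a second replicate was not used here because its input and immunoprecipitate could not be told apart with certainty.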

How the data were processed

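RNA of 16 libraries (WT, DNMT TKO and TET TKO mESCs, each with shEmpty or shKap1) was sequenced by the authors after poly(A) selection with a stranded kit (single-end 100 bp). Per the labels and the study's methods, reads were aligned to mm9 with HISAT2 (2.0.1 in the submitters' processing notes), reads with more than 1 position were discarded, and featureCounts summarised them on merged exons of genes. The table headers name another featureCounts release than those notes and do not name the aligner. TE reads were counted with bedtools multicov over a merged repeat track. The deposited values are raw counts per gene, per repeat integrant and, for hMeDIP, per region. Depositions of other assays were used as region lists only or not at all.

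The counts of all 16 libraries, in 6 groups, were fitted with edgeR 4.0.16 (limma 3.58.1, R 4.3.3), with TMM factors and the gene totals also for TEs, on features with at least 16 reads. Quasi-likelihood tests with Benjamini-Hochberg adjustment over all features gave TET TKO against WT with each hairpin and the interaction. Features past both 2-fold and an adjusted p of 0.05 were called. The study used voom, which served with DESeq2 1.42.0 as an alternative. The other alternatives were the scaling, low-count filters, the samples in the fit, no fold minimum, exons and each library left out. The edgeR fits of genes and of TE integrants were also run on simulated data. The family fit and the alternatives were not. With 2 against 3 libraries an exact permutation test cannot go below p = 0.2, so none was used. Gene symbols came from GENCODE vM1 (37205 of 37991 genes) and promoters from RefSeq. Families needed at least 10 integrants.

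The lists and the rule for naming were chosen with earlier results of these data known. Named were Trim28 and the Tet genes, the 12 genes in each direction with the largest difference, at least 500 reads and groups that do not overlap, the 5 in each direction for the interaction, the 5 members of each list with the smallest p, and the 6 integrants (at least 200 reads) and 6 families in each direction. Other genes, integrants, windows and families named were chosen after their values were seen. Replicate numbers did not pair TET TKO with WT libraries: the correlation of deviations between same-numbered shKap1 libraries was -0.053 and -0.054. Some genes of the lists are not reported here.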

Additional observations from a re-analysis of the deposited data

Results flagged for a closer look

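The gap between TET TKO and WT cells was tested for a change between hairpins, and each result below was listed because that test (edgeR interaction, adjusted p below 0.05 and 2-fold) was passed. It was passed by 855 genes, 1331 TE integrants and 36 TE families. Values are changes of the log2 gap, shKap1 minus shEmpty. Among the genes with the largest differences they were -1.30 for Tet3, 5.71 for Aqp9, 5.12 for Prr18, 4.36 for Pramel6, 4.19 for Tmem132c, -1.64 for Gm10499, 5.28 for Arntl2, 6.28 for Cldn9, -6.20 for Gm17514, -8.20 for Ctsh, -5.50 for Ttc18, -4.39 for Naip6, 6.25 for Gm8711, 6.23 for Rassf4, -5.23 for 2810429I04Rik and -4.91 for Serpina3m. For Gm8711 and Gm17514 a group had no read, so their values are fitted and give no size.

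Among 2-cell genes and the MERVL-driven Lrrn4 they were 2.36 for Tdpoz3, 3.11 for Zfp352, 1.62 for Lrrn4, 2.62 for Gm4340, 2.86 for Zscan4b, 2.78 for Zscan4d, 2.66 for Zscan4e, 2.42 for Gm12794, 1.72 for Gm4027 and 2.64 for Zscan4c. All of these were positive. Most have near-identical copies, so they are not separate observations.

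Among pluripotency, lineage and germline genes they were 2.74 for Tcl1, 1.04 for Prdm14, -1.02 for Sox4, 2.42 for Tcf15, 1.57 for Foxd3, -1.90 for Gata2, 1.43 for Stk31 and 1.04 for Xlr3a. Among the remaining lists they were -1.06 for Zfp809, 1.37 for Oas1a, 1.74 for Inhbb and -1.30 for Thy1. All 2-cell genes that passed are given above, but of the other lists only the 5 members with the smallest p after knockdown were considered. Further members of these lists passed and are not named. In the germline list the interaction was positive in 9 genes and negative in 1. The calls of Foxd3, Gm10499, Gm17514, Oas1a, Naip6, Prdm14, Sox4, Thy1, Xlr3a, Gm4340, Gm4027, Gm12794, Zscan4c, Zscan4e and MT2_Mm were lost when some single libraries were left out, Prdm14 falling to 0.917 without WT shKap1 replicate 1. Among TEs the changes were -2.76 for ERVB7_4-LTR_MM, 1.45 for L1Md_A, 1.66 for MT2_Mm and -1.68 for RLTR44D. For the MERVL integrants at 3468160 on chromosome 16, 11755295 on chromosome 7 and 53323606 on chromosome X they were 1.80, 2.08 and 2.33.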

How the results depend on the processing

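With adjusted p alone, 6063 genes differed after knockdown, 5522 with shEmpty and 1970 between hairpins, and 278, 129 and 121 families. For integrants after knockdown, a minimum of 100 reads gave 4914 calls and DESeq2 3491. With shEmpty, no filter, 100 reads and DESeq2 gave 3147, 3047 and 2009 calls, and between hairpins 808, 767 and 584. Leaving out single libraries gave 1651 to 2135 genes after knockdown, 1652 to 2148 with shEmpty and 540 to 867 between hairpins, the last lowest without TET TKO shEmpty replicate 2 (540) and TET TKO shKap1 replicates 2 (541) and 1 (547). For integrants the ranges were 5604 (without TET TKO shKap1 replicate 1) to 7845, 2739 (without TET TKO shEmpty replicate 1, and 2760 without replicate 2) to 4333, and 751 (without TET TKO shEmpty replicate 2, and 787 without replicate 1) to 1230. Scaling to TE totals moved the families between hairpins from 30 positive and 6 negative to 16 and 10, and with shEmpty from 24 higher and 14 lower to 31 and 11. Asking for most of the integrant in place of 1 base to overlap put 6.41% of higher, 9.59% of lower and 2.62% of uncalled integrants in a KAP1 region, since fewer integrants can meet it. With the replicate block, 2253 genes were called after knockdown, 2120 of them also without it, 2122 with shEmpty and 993 between hairpins. The block gave 8523, 4518 and 1362 integrants and 72, 38 and 36 families, so no such count moved by more than 1.5 times. Same-numbered WT libraries with shKap1 and shEmpty correlated at 0.459, 0.271 and 0.282, the TET TKO pairs at -0.026. Over the comparisons of 195 named results with each alternative, a call was gained in 73 and lost in 72, 2523 stayed on their side, and 0 reversed. These results are the comparison after knockdown for all named items, and the interaction only for genes named by it and for MERVL and MT2_Mm. The other flagged interaction calls are not in this tally. No chromosome met the condition for being left out. The causes were not tested. Integrants with fewer than 16 reads over the 16 libraries were not tested, which left 123880 of 3404964.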

Other observations

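TET TKO shEmpty replicate 2 had 8956580 reads on repeats of all classes, against 1554298 to 2716458 in the other 15 libraries, while its reads on LINE, SINE, LTR and DNA elements numbered 1435273. This library has no value in the shKap1 comparison. As 1 of the 16 libraries fitted together it still enters the read filter, the scaling and the estimate of the spread behind that test. It belongs to the TET TKO shEmpty group, so it enters the comparison with shEmpty and every interaction directly.

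Scd3, a stearoyl-CoA desaturase gene, stood at 99.7 and 90.3 CPM in TET TKO and 2.10, 1.95 and 2.19 in WT cells after knockdown (log2 5.52), and Limch1 at 43.5 and 48.2 against 1.05, 0.996 and 0.746 (log2 5.61). Tgfbi, which encodes an extracellular matrix protein, went the other way, at 0.278 and 0.565 against 9.75, 6.15 and 5.65 after knockdown and 5.46 and 5.26 against 4.55, 2.85 and 2.65 with shEmpty, with an interaction of -4.80 (edgeR). The oocyte and early embryo gene Obox6 was at 26.6 and 28.2 against 0.419, 0.779 and 0.693, with log2 differences of 5.41 after knockdown and 6.62 with shEmpty. These genes were chosen after their values were seen.

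TE integrants lying wholly inside exons of expressed genes carried 1085149 reads where they lay on the strand of the gene (4435 integrants) and 5358 where they lay on the other strand (5134 integrants), over the 5 shKap1 libraries, so the TE counts kept strand.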
